A study of Homo sapiens with 26 samples.

Results

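The 42 genes described here are a set of lysosomal and autophagy genes: the transcription factors TFEB and TFE3, 9 lysosomal proteases, 7 soluble glycosidases and lipid-handling proteins, 5 lysosomal membrane proteins, 9 subunits of the vacuolar proton pump, 4 genes of the Rag GTPase and folliculin branch, and 6 autophagy genes. They were taken by name, as the members of the set that have a probe on the array, and all 42 of 42 had one, among 17283 genes with a probe. The study asked how the transcriptome of isogenic HCT116 colon cancer cells responds to leptomycin B, a product of Streptomyces bacteria that blocks the nuclear export receptor XPO1. HCT116 is an epithelial cell line from a human colorectal carcinoma, and its p53KO derivative has been engineered to lack p53, the transcription factor encoded by the tumour suppressor gene most often mutated in cancer. The lines came from the Vogelstein laboratory, per the labels, which do not say how many clones were used.

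Each of 26 samples was hybridised to 1 one-colour Illumina array. Leptomycin B was given for 16 h at 20 nM to cells labelled p53KO (3 arrays) and to cells labelled wild type (3 arrays), with untreated replicates 4 to 6 of each label on the same series of slides (series 1, by the slide identifiers in the labels). At 2 nM, 3 arrays of each label were treated, and untreated replicates 7 to 10 of each label lay on the same slides (series 2). All cells were grown in serum-containing medium, and the labels name no vehicle. Values are the deposited background-subtracted intensities. A difference is given on the log2 scale with its standard error, treated minus untreated, after intensities under a floor of 10 were set to 10, and "called" means an adjusted p under 0.05 in a limma fit over 12962 genes. Of the 42 genes 41 entered that fit. The labels do not say that replicates were separate cultures, so the p-values measure the spread between arrays only, and the number of arrays limits the precision.

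Several features of the arrays bear on the results. CDKN1A, the p53 target that encodes the p21 cell cycle inhibitor, had a mean intensity of 2695 ± 1218 on untreated KO-labelled arrays of series 1, against 13616 ± 7279 on WT-labelled ones (SD, n = 3 each). In series 2 it had 4380.0 ± 285 on untreated KO-labelled arrays, against 733 ± 189.9 on WT-labelled arrays (SD, n = 4 each). The difference therefore ran in opposite directions in the 2 series (log2 -2.27 ± 0.37, adjusted p = 0.000324, and 2.61 ± 0.32, adjusted p = 1.84e-05), so in 1 of the series it went against the labels, and cells are called KO-labelled and WT-labelled throughout. Untreated replicates 4 and 10 of both labels stood apart from the other untreated arrays for several genes of the set. Counts of called genes over the whole set are given with and without them, as are the genes of the 4 responses whose call they changed. They were left out because they stood apart, which leaves fewer untreated arrays and removes spread. The standard errors and p-values without them are therefore too small to be read like those with all arrays. Counts by role and counts of other pathway genes are given with them only. In series 1 treated and untreated arrays shared no slide, so slide and treatment cannot be told apart there. In series 2 each label had a slide of its own, so each 2 nM response lies within 1 slide while label and slide cannot be told apart. Dose and series cannot be told apart either. Of 11 intestinal epithelial markers, CDX2, EPCAM, KRT18, KRT19 and KRT8 were above the floor on all 26 arrays, and CDX1, LGALS4 and VIL1 were at or below it on all. Of 11 fibroblast markers 9 were at or below the floor on every array and their summed intensity was 28.1 to 58.8, with 1 of the 4 tested called, COL5A1, which was higher in KO-labelled cells at 2 nM. Of 16 blood, macrophage and endothelial markers 11 were at or below the floor on every array.

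Lysosomal genes are controlled as a group by the MiT family of basic helix-loop-helix factors, of which TFEB and TFE3 are members. These factors bind a palindromic motif built on CACGTG, known as the CLEAR element, in the promoters of genes for hydrolases, proton pump subunits and autophagy proteins. The Rag GTPases RRAGC and RRAGD, with the folliculin complex that acts on them, bring TFEB and TFE3 to the lysosome surface, where the kinase mTORC1 phosphorylates them and keeps them in the cytoplasm. TFEB leaves the nucleus through XPO1, the receptor that leptomycin B inactivates.

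The motif was looked for in RefSeq promoters (GRCh38.p14, 250 bases before to 50 bases after each gene's start), for the 31 of 42 genes that matched the promoter table by symbol. The 11 that did not are CTSB, LAMP2, HEXA, PSAP, ATP6V0E1, ATP6V1A, ATP6V1B2, ATP6V1C1, ATP6V1H, RRAGD and UVRAG. A gene with several promoters was counted if any of them held the motif. The full form, TCACGTGA with a G before it and a C after it, was present for 2 of 31 genes (6.45%). TCACGTGA was present for 5 (16.1%), and the core CACGTG for 10 (32.3%). The shares among all 27305 genes with a promoter were 0.421%, 1.18% and 8.77%. Among 114 other genes of the same pathways, described further below, they were 5.26%, 9.65% and 20.2%, so the motif is not particular to this set. The set was chosen to hold TFEB-type lysosomal genes, so a high share may be built into the choice. Each motif reads the same on both strands, and the shorter ones lie inside the longer ones. The windows of 60 bases below show the longest motif, in capitals, for all 5 genes with TCACGTGA and for NEU1 and RRAGC. Of the genes that hold the core alone, these 2 were the ones called higher in all 4 responses described next. The core alone was also present in CTSD, CTSF and FNIP1, which are not shown, with 2 copies each in CTSF and FNIP1. CTSD was called higher in 3 responses, FNIP1 lower in 2, and CTSF, below the floor on all arrays, in none.
MCOLN1: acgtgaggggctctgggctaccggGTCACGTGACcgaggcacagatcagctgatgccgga
GAA: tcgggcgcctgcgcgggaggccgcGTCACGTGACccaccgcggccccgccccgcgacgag
CTSA: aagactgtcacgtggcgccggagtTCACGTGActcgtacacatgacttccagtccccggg
LAMP1: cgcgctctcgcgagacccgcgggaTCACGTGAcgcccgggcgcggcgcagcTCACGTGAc
ATP6V0D1: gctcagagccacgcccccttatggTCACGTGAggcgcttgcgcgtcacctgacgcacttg
NEU1: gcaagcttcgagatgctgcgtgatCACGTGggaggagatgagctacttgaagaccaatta
RRAGC: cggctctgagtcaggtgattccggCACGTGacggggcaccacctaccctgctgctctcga
They lie at chr19:7522584-7522643 (plus strand) for MCOLN1, where the motif begins 16 bases before the start, and at chr17:80101479-80101538 (plus) for GAA, whose promoter holds 2 copies. The CTSA window is chr20:45891285-45891344 (plus) and the LAMP1 window, with 2 copies, is chr13:113297186-113297245 (plus). The ATP6V0D1 window is chr16:67481182-67481241 (minus), that of NEU1 is chr6:31862912-31862971 (minus), and that of RRAGC is chr1:38859849-38859908 (minus). A match is a description of these letters and not of binding. Of the 5 genes with TCACGTGA, MCOLN1 and CTSA were called higher in all 4 responses described next, and GAA and ATP6V0D1 in none. LAMP1, which holds TCACGTGA at 2 places, was called in 1 response, where it fell. CTSL and TPP1, also called higher in all 4, had no CACGTG in this stretch.

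Leptomycin B changed the set in both directions, with more genes higher than lower. At 20 nM 16 of 41 genes were called higher and 7 lower in KO-labelled cells, where 18.3% and 18.8% of all genes tested were (37.2% in either direction), and 10 were higher and 8 lower in WT-labelled cells, where 21.1% and 22.2% of all genes were (43.2%). At 2 nM 21 were higher and 5 lower in KO-labelled cells, against 21.6% and 21.8% of all genes (43.4%). In WT-labelled cells 23 were higher and 6 lower at 2 nM, against 17.4% and 19.1% of all genes (36.5%). The median log2 difference of the 41 genes was 0.28 and 0.14 at 20 nM and 0.40 and 0.38 at 2 nM, in KO-labelled and WT-labelled cells in turn, where the median of all genes was 0.00 in each comparison. In WT-labelled cells at 20 nM the counts were thus close to those of all genes. The genes tested include some at or below the floor on all arrays, as CTSF was, which cannot be called. Such genes draw the all-gene median towards no change and lower the all-gene shares, here and below. By how much was not tested. In an RNA extract from many cells, fewer cells of a type and less RNA per cell cannot be told apart.

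**Figure D1:**
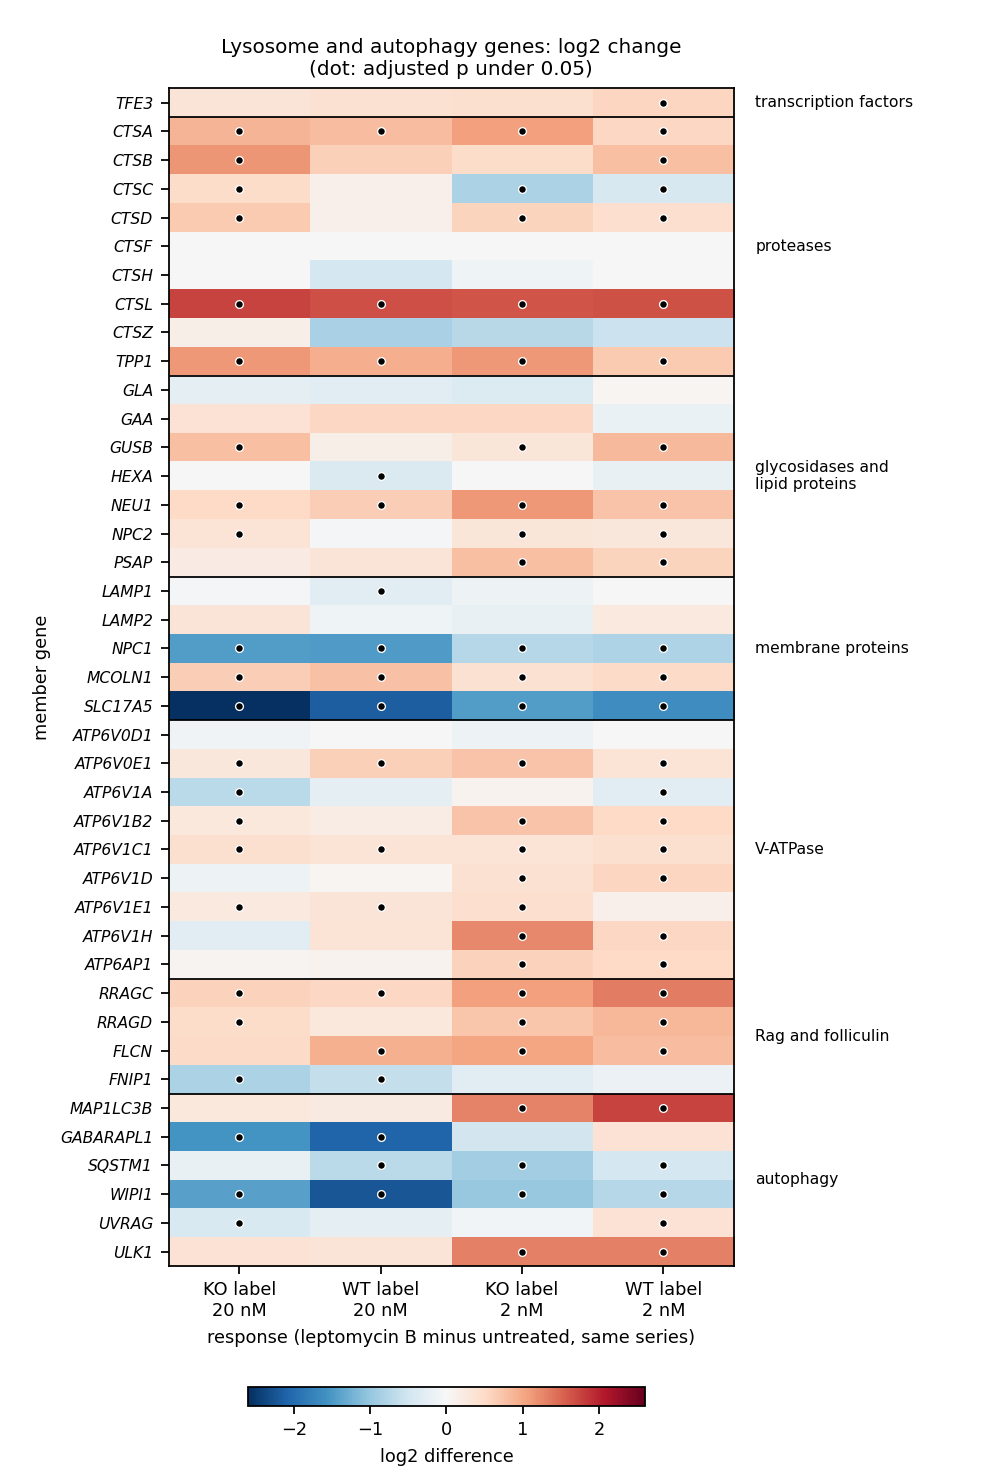
Log2 difference (leptomycin B minus untreated) of the 41 genes tested, by role, in KO-labelled and WT-labelled cells at 20 nM and then at 2 nM. Colour gives direction and size, and a dot marks an adjusted p under 0.05. CTSL, CTSA, TPP1, NEU1, MCOLN1, ATP6V0E1, ATP6V1C1 and RRAGC carry a dot as higher in every column, and SLC17A5, NPC1 and WIPI1 as lower.

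Of the 41 genes 8 were called higher in all 4 responses (19.5%, against 8.16% of all genes tested): the proteases CTSL, CTSA and TPP1, the sialidase NEU1, the channel MCOLN1, the pump subunits ATP6V0E1 and ATP6V1C1, and RRAGC. The transporters SLC17A5 and NPC1 and the autophagy gene WIPI1 were called lower in all 4 (7.32%, against 8.81% of all genes). CTSC and UVRAG were called in opposite directions in different responses, and 7 tested genes were called in none: ATP6V0D1, CTSF, CTSH, CTSZ, GAA, GLA and LAMP2. For LAMP2 this holds for the probe that represents the gene in the fit. Its other probes were called higher in all 4 responses, as given below. With untreated replicates 4 and 10 left out, 9 genes were higher in all 4, with CTSB and PSAP added and RRAGC no longer among them, and SLC17A5, NPC1 and WIPI1 were again the 3 lower in all 4. Of the 11 genes called in 1 direction in all 4, ATP6V0E1, ATP6V1C1, RRAGC and WIPI1 lost a call when some single arrays were left out, as given with each gene. Of the 7 blood, macrophage and endothelial markers tested, 3 were called higher in each response but that of KO-labelled cells at 2 nM, where 2 were. Their summed intensity was 259.6 to 268.1 in KO-labelled cells at 20 nM, against 93.6 to 111.1 untreated, and 120.9 to 143.4 in WT-labelled cells, against 61.3 to 91.9 untreated. At 2 nM it was 115.5 to 126.3 in KO-labelled cells, against 47.3 to 65.7 untreated, and 273.2 to 309.1 in WT-labelled cells, against 84.4 to 92.1 untreated. HBA1, a globin gene, averaged 178 ± 4.87 in KO-labelled cells at 20 nM, against 47.4 ± 26.2 untreated (SD, n = 3 each), CD14 and FCER1G had group means of 27.5 or lower, and CSF1R, CD163 and TYROBP were at or below the floor on all arrays. Their part in the results was not tested.

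The transcription factors themselves gave little signal. TFEB did not pass the filter on dim genes: its probe lay between -8.73 and 3.22 on all 26 arrays, below the floor, so its response is not measured here. TFEB read -0.751, -4.65 and 1.65 in KO-labelled cells at 20 nM, against -1.59, 3.22 and 1.43 untreated, and 1.65, -4.61 and -5.60 in WT-labelled cells, against 0.754, 2.25 and -1.65 untreated. At 2 nM TFEB read -6.97, 1.07 and -2.59 in KO-labelled cells, against -8.73, -3.44, 2.84 and 0.823 untreated, and -3.95, -2.32 and -1.04 in WT-labelled cells, against -4.13, -4.69, -1.78 and -1.08 untreated. Values this far below the floor have no order. TFE3 encodes the other factor of the pair. TFE3 read 19.1, 22.1 and 22.8 in KO-labelled cells at 20 nM, against 9.67, 19.4 and 24.2 untreated, and 26.1, 18.8 and 22.0 in WT-labelled cells, against 13.9, 18.9 and 18.1 untreated. At 2 nM TFE3 read 12.5, 11.2 and 17.3 in KO-labelled cells, against 4.15, 4.61, 8.85 and 9.65 untreated, and 14.0, 15.8 and 16.8 in WT-labelled cells, against 10.9, 11.3, 8.74 and 9.80 untreated. All of these are close to the floor, and the treated and untreated arrays of series 1 overlap. The TFE3 differences were 0.34 ± 0.23 and 0.39 ± 0.23 at 20 nM (adjusted p = 0.269 and 0.18), in KO-labelled and WT-labelled cells in turn. In KO-labelled cells at 2 nM all 4 untreated arrays were below the floor, so TFE3 was at least 1.34-fold higher there, which was not called (adjusted p = 0.122) but was without untreated replicates 4 and 10 (adjusted p = 0.0228). With all arrays TFE3 was called only in WT-labelled cells at 2 nM (0.55 ± 0.21, adjusted p = 0.0469), where 2 of the 4 untreated arrays were below the floor and the difference is understated. The call was lost with a floor of 20 and without any 1 of its 7 arrays (adjusted p = 0.0585 to 0.144).

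Lysosomal proteases break down proteins delivered by endocytosis and autophagy. Of the 9 tested, 6 were called higher and 0 lower in KO-labelled cells at 20 nM, 3 and 0 in WT-labelled cells at 20 nM, 4 and 1 in KO-labelled cells at 2 nM, and 5 and 1 in WT-labelled cells at 2 nM. By response 33.3% to 66.7% of the proteases were higher, where 17.4% to 21.6% of all genes were. The lower ones were 0.0% to 11.1%, where 18.8% to 22.2% of all genes were. CTSL, a broad-acting cysteine protease, had the largest rise of the 41 genes in 3 of the 4 responses, all but WT-labelled cells at 2 nM, where MAP1LC3B rose more. CTSL read 2089, 2086 and 2212 in KO-labelled cells at 20 nM, against 619, 609 and 672 untreated, and 2086, 2210.3 and 2378 in WT-labelled cells, against 699, 683 and 706 untreated. At 2 nM CTSL read 2273, 2531 and 2405 in KO-labelled cells, against 759.5, 710.2, 723 and 896 untreated, and 2289, 2300.5 and 2212 in WT-labelled cells, against 641, 679.5, 644 and 964 untreated. The lowest treated array read 2086 and the highest untreated array 964. The CTSL differences were 1.75 ± 0.11 and 1.67 ± 0.11 at 20 nM (3.36-fold and 3.19-fold, adjusted p = 9.12e-10 and 7.2e-10), and 1.64 ± 0.11 and 1.65 ± 0.11 at 2 nM (3.12-fold and 3.14-fold, adjusted p = 2.89e-10 and 6.74e-10), in KO-labelled and WT-labelled cells in turn. The other CTSL probe, fitted on its own, gave 2.03 ± 0.085, 1.91 ± 0.085, 1.70 ± 0.08 and 1.48 ± 0.08, all called.

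TPP1, a tripeptidyl peptidase whose loss causes a neuronal ceroid lipofuscinosis, also rose in all 4 responses. TPP1 read 218, 219 and 219.9 in KO-labelled cells at 20 nM, against 153, 87.4 and 74.6 untreated, and 255, 262 and 270.4 in WT-labelled cells, against 165, 126 and 120.4 untreated. At 2 nM TPP1 read 198, 174 and 202 in KO-labelled cells, against 83.2, 78.9, 77.8 and 114 untreated, and 148, 137 and 139 in WT-labelled cells, against 86.7, 84.3, 77.3 and 106 untreated. The arms did not overlap, although untreated replicates 4 and 10 were the highest of their groups. The TPP1 differences were 1.13 ± 0.20 (adjusted p = 0.000133) and 0.95 ± 0.20 (adjusted p = 0.000537) at 20 nM, and 1.13 ± 0.18 (adjusted p = 4.46e-05) and 0.68 ± 0.18 (adjusted p = 0.00589) at 2 nM, in KO-labelled and WT-labelled cells in turn. CTSA, the carboxypeptidase that also protects NEU1 and β-galactosidase in a complex, read 262, 249 and 257 in KO-labelled cells at 20 nM, against 155, 135 and 129 untreated, and 229, 253 and 289.9 in WT-labelled cells, against 150.2, 150.0 and 143 untreated. At 2 nM CTSA read 178, 204 and 205 in KO-labelled cells, against 85.4, 98.0, 90.2 and 102 untreated, and 152, 138 and 160.0 in WT-labelled cells, against 102, 98.4, 95.6 and 115 untreated. Here too no treated array reached down to an untreated one. CTSA rose by 0.88 ± 0.092 and 0.79 ± 0.092 at 20 nM (adjusted p = 4.04e-07 and 8.59e-07) and by 1.06 ± 0.086 and 0.55 ± 0.086 at 2 nM (adjusted p = 6.74e-09 and 4.56e-05), in KO-labelled and WT-labelled cells in turn.

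**Figure D2:**
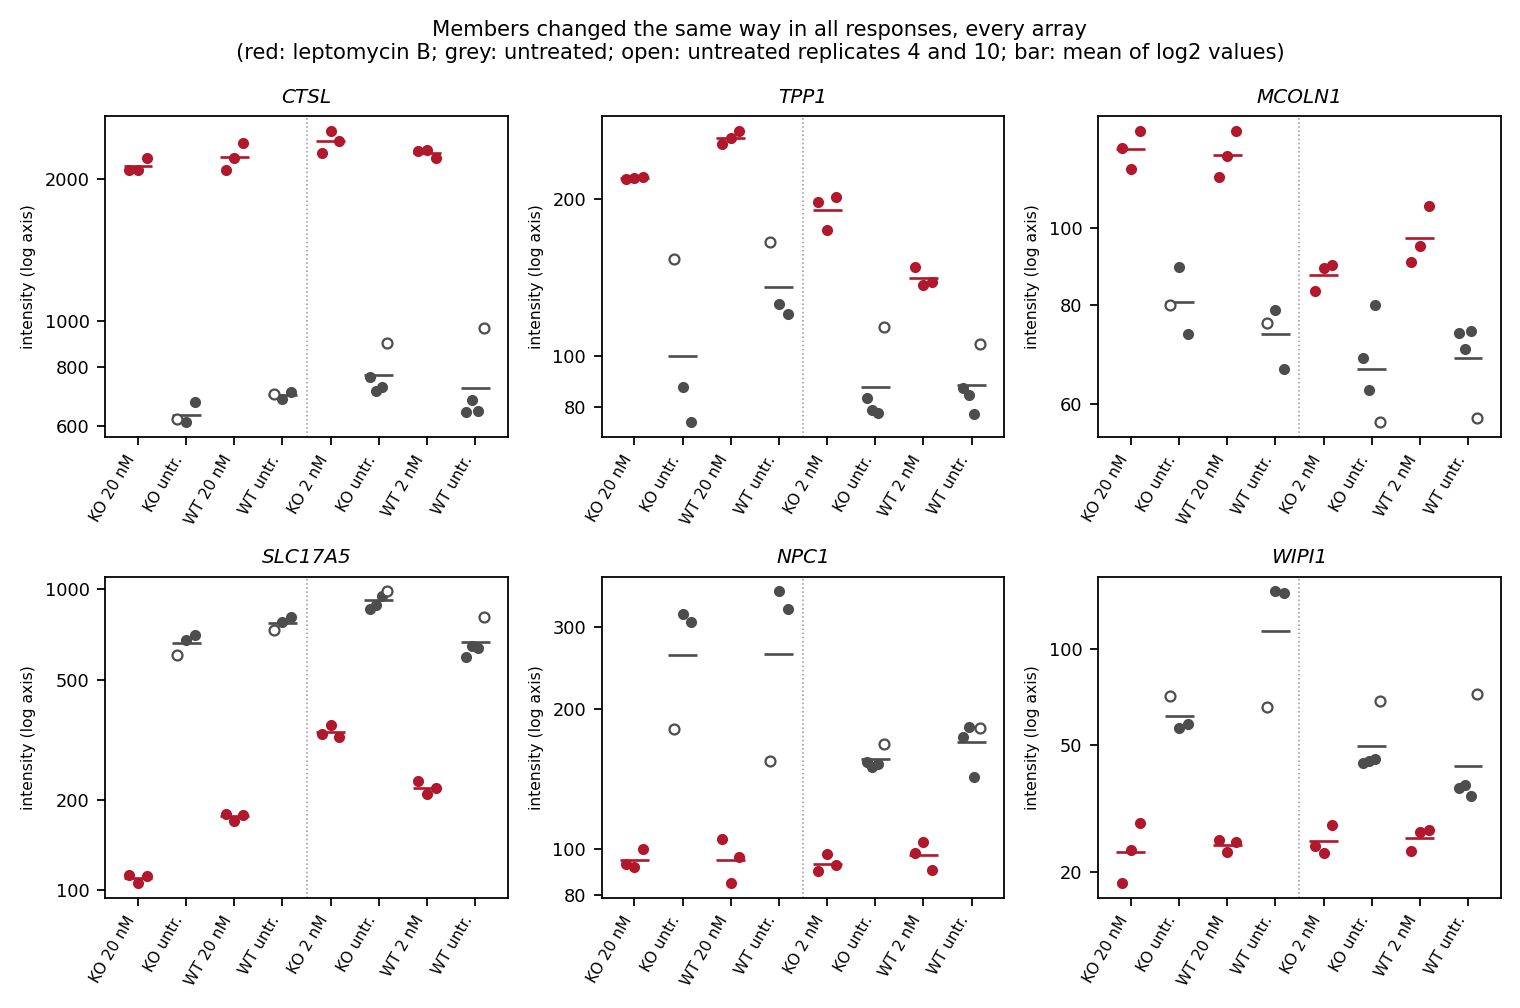
Intensity on every array (log axis) of 6 genes called in the same direction in all 4 responses: CTSL, TPP1, MCOLN1, SLC17A5, NPC1 and WIPI1. Red points are leptomycin B arrays and grey points untreated arrays, with untreated replicates 4 and 10 drawn open. Bars are means of log2 values, and the dotted line separates series 1 (20 nM, left) from series 2 (2 nM, right). CTSL, TPP1 and MCOLN1 are higher with leptomycin B at both doses, and SLC17A5, NPC1 and WIPI1 lower.

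The other proteases differed between responses. CTSD, the main aspartic protease of lysosomes, read 685, 689 and 679 in KO-labelled cells at 20 nM, against 478, 378 and 429.5 untreated, and 849.7, 883 and 900.2 in WT-labelled cells, against 752, 828 and 825 untreated. Its groups did not overlap in either label, but the difference was 0.68 ± 0.11 (adjusted p = 6.02e-05) in KO-labelled cells and 0.13 ± 0.11 (adjusted p = 0.393) in WT-labelled ones. At 2 nM CTSD rose in both labels, by 0.59 ± 0.10 (adjusted p = 8.98e-05) in KO-labelled and 0.44 ± 0.10 (adjusted p = 0.00198) in WT-labelled cells. CTSC, the dipeptidyl peptidase that activates granule serine proteases, read 147, 155 and 139 in KO-labelled cells at 20 nM, against 132, 98.8 and 88.5 untreated, and 103, 92.5 and 81.1 at 2 nM, against 164, 171, 165 and 147 untreated. It was thus above its untreated arrays at 20 nM and below them at 2 nM, with differences of 0.48 ± 0.14 (adjusted p = 0.00797) and -0.82 ± 0.13 (adjusted p = 2.69e-05). In WT-labelled cells CTSC gave 0.14 ± 0.14 at 20 nM (adjusted p = 0.484) and fell at 2 nM (-0.41 ± 0.13, adjusted p = 0.0157). The call in KO-labelled cells at 20 nM was lost without untreated replicate 6 (adjusted p = 0.061). That in WT-labelled cells at 2 nM was lost without 2 nM replicate 2 (adjusted p = 0.0531). CTSC probe 4086, fitted on its own, was called in KO-labelled cells at 20 nM (0.46 ± 0.14, adjusted p over all probes = 0.0109) and 2 nM (-1.07 ± 0.13, adjusted p = 1.01e-06). In WT-labelled cells this probe was not called, with -0.30 ± 0.14 at 20 nM (adjusted p = 0.0849) and -0.13 ± 0.13 at 2 nM (adjusted p = 0.518). CTSB, a cysteine protease, rose in KO-labelled cells at 20 nM (1.15 ± 0.28, adjusted p = 0.00316) and in WT-labelled cells at 2 nM (0.78 ± 0.27, adjusted p = 0.0271), with 0.63 ± 0.28 and 0.48 ± 0.27 in the other 2 responses (adjusted p = 0.0841 and 0.167). The CTSB call in WT-labelled cells at 2 nM was lost without any 1 of 5 of its 7 arrays, all but untreated replicates 9 and 10 (adjusted p = 0.0513 to 0.07). CTSZ was called in no response, with differences from -0.85 in WT-labelled cells at 20 nM to 0.14 in KO-labelled cells at 20 nM. CTSF stayed below the floor on all 26 arrays, between 1.34 and 8.26, and CTSH did on most.

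The soluble glycosidases and lipid-handling proteins showed 3 of 7 higher and 0 lower in KO-labelled cells at 20 nM, 1 higher and 1 lower in WT-labelled cells at 20 nM, and 4 higher and 0 lower in each label at 2 nM. That is 14.3% to 57.1% higher and 0.0% to 14.3% lower, against the same all-gene shares of 17.4% to 21.6% and 18.8% to 22.2%. NEU1, the lysosomal sialidase, was the one that rose in every response. NEU1 read 161, 170.4 and 161 in KO-labelled cells at 20 nM, against 103, 123 and 119 untreated, and 174, 192 and 203 in WT-labelled cells, against 93.4, 142 and 136 untreated. At 2 nM NEU1 read 159.7, 141 and 165 in KO-labelled cells, against 70.5, 65.7, 69.0 and 80.8 untreated, and 126, 139 and 141 in WT-labelled cells, against 70.0, 74.5, 88.2 and 93.6 untreated. The lowest treated array was above the highest untreated one in each pair. NEU1 differed by 0.52 ± 0.13 and 0.64 ± 0.13 at 20 nM (adjusted p = 0.0047 and 0.000659) and by 1.12 ± 0.13 and 0.74 ± 0.13 at 2 nM (adjusted p = 5.32e-07 and 0.000107), in KO-labelled and WT-labelled cells in turn.

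GUSB, the β-glucuronidase often used as a reference gene in PCR, read 432, 445 and 486 in KO-labelled cells at 20 nM, against 228, 283 and 291 untreated, and 350.3, 319 and 371 in WT-labelled cells, against 227, 374 and 355 untreated. At 2 nM GUSB read 299, 287 and 287 in KO-labelled cells, against 256, 223, 238 and 214 untreated, and 382, 398 and 405 in WT-labelled cells, against 222, 218, 222 and 221 untreated. The arms overlapped only in WT-labelled cells at 20 nM. GUSB rose by 0.77 ± 0.13 in KO-labelled cells at 20 nM (adjusted p = 0.000105), by 0.32 ± 0.12 in KO-labelled cells at 2 nM (adjusted p = 0.0389) and by 0.84 ± 0.12 in WT-labelled cells at 2 nM (adjusted p = 1.94e-05), against 0.15 ± 0.13 in WT-labelled cells at 20 nM (adjusted p = 0.402). The call in KO-labelled cells at 2 nM was lost without any 1 of 6 of its 7 arrays, all but untreated replicate 7 (adjusted p = 0.0548 to 0.105). GUSB has pseudogenes that its probe may also bind.

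NPC2, which hands cholesterol to NPC1 in the lysosome lumen, read 7591, 7046 and 7401 in KO-labelled cells at 20 nM, against 5677, 5898 and 5691 untreated, and 9055, 9837 and 9242 in WT-labelled cells, against 9527, 9493 and 9908 untreated. At 2 nM NPC2 read 8481, 8444 and 8762 in KO-labelled cells, against 6382, 6466, 6581 and 8227 untreated, and 6353, 6124 and 6041 in WT-labelled cells, against 4829, 4630.2, 5342 and 5473 untreated. It was higher with leptomycin B in 3 of the 4 pairs, by 0.35 ± 0.074 (adjusted p = 0.000903) in KO-labelled cells at 20 nM, 0.32 ± 0.069 (adjusted p = 0.000919) in KO-labelled cells at 2 nM and 0.29 ± 0.069 (adjusted p = 0.00272) in WT-labelled cells at 2 nM. In WT-labelled cells at 20 nM it gave -0.041 ± 0.074 (adjusted p = 0.811). PSAP, the precursor of the saposins that present lipids to hydrolases, rose at 2 nM, by 0.78 ± 0.16 in KO-labelled cells (adjusted p = 0.000576) and 0.58 ± 0.16 in WT-labelled cells (adjusted p = 0.00789), and gave 0.21 ± 0.17 and 0.34 ± 0.17 at 20 nM (adjusted p = 0.4 and 0.128). GAA, the acid α-glucosidase that degrades glycogen, was called in no response, but it depended on single arrays. It averaged 51.6 in KO-labelled cells at 20 nM, against 54.2 on untreated replicate 4 and 32.8 and 34.8 on the other 2 untreated arrays, so that replicate 4 alone reached the treated level. GAA was, without untreated replicates 4 and 10, called higher at 20 nM (0.61 ± 0.12, adjusted p = 0.000607, in KO-labelled and 0.76 ± 0.12, adjusted p = 7e-05, in WT-labelled cells) and in KO-labelled cells at 2 nM (0.88 ± 0.11, adjusted p = 5.2e-06). GLA, the α-galactosidase A, was called in none (differences from -0.35 to 0.058). HEXA, a β-hexosaminidase subunit, read 5.81, 7.26 and 7.50 in WT-labelled cells at 20 nM, against 12.2, 13.6 and 13.0 untreated. All of its treated arrays there were below the floor, so it was at least 1.29-fold lower (adjusted p = 0.00263), and the call was lost with a floor of 20.

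Among the 5 lysosomal membrane proteins, 1 was higher and 2 lower in KO-labelled cells at 20 nM and in each label at 2 nM, and 1 higher and 3 lower in WT-labelled cells at 20 nM. The shares are 20.0% higher in each response, near the 17.4% to 21.6% of all genes, and 40% to 60% lower, against 18.8% to 22.2%. With 5 genes they are coarse, and the share higher depends on the probe used for LAMP2. The probe counted here was not called, while its other probes were called higher in all 4 responses. SLC17A5, the sialin transporter that exports sialic acid from the lysosome, had the largest fall of the 41 genes in 3 of the 4 responses, all but WT-labelled cells at 20 nM, where WIPI1 fell more. SLC17A5 read 112, 106 and 111 in KO-labelled cells at 20 nM, against 604, 678 and 708 untreated, and 179, 170.5 and 178 in WT-labelled cells, against 735, 778 and 809 untreated. At 2 nM SLC17A5 read 331, 354 and 324 in KO-labelled cells, against 861, 889, 948 and 986 untreated, and 231, 209 and 219 in WT-labelled cells, against 597, 651, 638 and 812 untreated. The highest treated array read 354 and the lowest untreated array 597. The SLC17A5 differences were -2.59 ± 0.085 and -2.14 ± 0.085 at 20 nM (6.03-fold and 4.39-fold lower, adjusted p = 5.53e-14 and 6.15e-13), and -1.45 ± 0.079 and -1.61 ± 0.079 at 2 nM (2.74-fold and 3.05-fold lower, adjusted p = 2.49e-11 and 1.84e-11), in KO-labelled and WT-labelled cells in turn. Its fall stands beside the rise of the sialidase NEU1, which releases the sialic acid that sialin exports.

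NPC1, the membrane protein that takes cholesterol from NPC2, fell in all 4 responses. NPC1 read 93.1, 91.8 and 100.2 in KO-labelled cells at 20 nM, against 181, 319 and 308 untreated, and 105, 84.7 and 96.2 in WT-labelled cells, against 155, 357 and 327 untreated. At 2 nM NPC1 read 89.8, 97.6 and 92.6 in KO-labelled cells, against 154, 150.2, 152 and 168 untreated, and 98.3, 104 and 90.2 in WT-labelled cells, against 174, 183, 143 and 182 untreated. The treated arrays of all 4 groups lay in one narrow band, and the untreated arrays of series 1 spread more, with replicate 4 the lowest in each label. NPC1 differed by -1.46 ± 0.23 and -1.47 ± 0.23 at 20 nM (adjusted p = 5.61e-05 and 3.48e-05) and by -0.74 ± 0.22 and -0.80 ± 0.22 at 2 nM (adjusted p = 0.00846 and 0.00619), in KO-labelled and WT-labelled cells in turn. MCOLN1, the calcium channel TRPML1, was the membrane protein that rose. MCOLN1 read 126, 119 and 133 in KO-labelled cells at 20 nM, against 79.9, 89.3 and 73.6 untreated, and 116, 123 and 133 in WT-labelled cells, against 75.8, 78.9 and 66.3 untreated. At 2 nM MCOLN1 read 83.2, 89.1 and 89.8 in KO-labelled cells, against 68.6, 62.5, 80.0 and 56.8 untreated, and 90.7, 95.1 and 107 in WT-labelled cells, against 73.7, 70.3, 74.1 and 57.5 untreated. The arms were separate in all 4 pairs. MCOLN1 rose by 0.64 ± 0.12 and 0.75 ± 0.12 at 20 nM (adjusted p = 0.000186 and 2.29e-05) and by 0.39 ± 0.11 and 0.51 ± 0.11 at 2 nM (adjusted p = 0.00521 and 0.000923), in KO-labelled and WT-labelled cells in turn.

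The lysosomal membrane glycoproteins LAMP1 and LAMP2 gave a mixed picture. LAMP1 was called only in WT-labelled cells at 20 nM, where it fell: it read 8678, 8073 and 8353, against 9349, 10442 and 10965 untreated (-0.29 ± 0.062, adjusted p = 0.00071). LAMP2 has 3 probes, looked at separately after their values were seen, and they disagreed. The brightest on average over all 26 arrays, which stands for the gene in the fit and has the identifier 13931, read 328, 312 and 316 in KO-labelled cells at 20 nM, against 280.4, 259 and 221 untreated, and 357, 329 and 317 in WT-labelled cells at 2 nM, against 271, 272, 243 and 336 untreated. It was called in none of the 4 responses, with differences of 0.34 ± 0.13 and -0.10 ± 0.13 at 20 nM (adjusted p = 0.0543 and 0.641) and -0.20 ± 0.12 and 0.26 ± 0.12 at 2 nM (adjusted p = 0.229 and 0.114), in KO-labelled and WT-labelled cells in turn.

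Of the other LAMP2 probes, 15786 read 369, 389 and 408 in KO-labelled cells at 20 nM, against 168, 176 and 176 untreated, and 398, 393 and 447 in WT-labelled cells, against 172, 204 and 212 untreated. At 2 nM LAMP2 probe 15786 read 337, 346 and 339 in KO-labelled cells, against 144, 138, 141 and 194 untreated, and 287, 290.2 and 292 in WT-labelled cells, against 126, 134, 130.3 and 159.6 untreated. These arrays separated fully by treatment. The differences were 1.17 ± 0.11 and 1.08 ± 0.11 at 20 nM (adjusted p over all probes = 8.62e-08 and 1.26e-07) and 1.16 ± 0.10 and 1.08 ± 0.10 at 2 nM (adjusted p = 1.68e-08 and 8.56e-08), a rise of 2.24-fold, 2.11-fold, 2.24-fold and 2.11-fold. LAMP2 probe 15787 also rose in all 4 responses, by 2.27-fold and 2.18-fold at 20 nM and 1.92-fold and 1.86-fold at 2 nM (adjusted p = 1.25e-06, 1.34e-06, 4.74e-06 and 1.34e-05). LAMP2 is known to be spliced into isoforms that differ in the last exon, but the files used here do not say where on the transcript each probe lies.

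**Figure D3:**
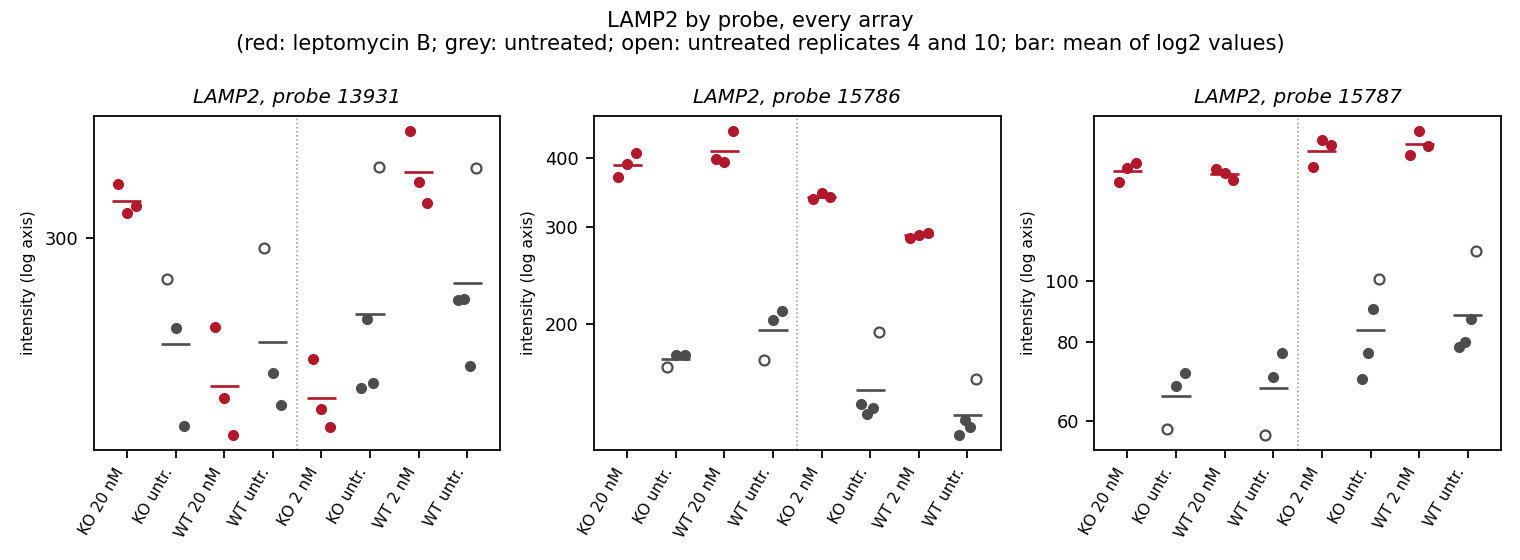
Intensity on every array (log axis) of the 3 LAMP2 probes. Red points are leptomycin B arrays and grey points untreated arrays, with untreated replicates 4 and 10 open. Bars are means of log2 values, and the dotted line separates series 1 (20 nM, left) from series 2 (2 nM, right). Probes 15786 and 15787 are higher with leptomycin B in every pair, and probe 13931, the brightest on average over the 26 arrays, is not.

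The vacuolar proton pump, or V-ATPase, acidifies the lysosome with a membrane sector, V0, that carries protons and a peripheral sector, V1, that hydrolyses ATP. Of its 9 subunits in the set, 4 were called higher and 1 lower in KO-labelled cells at 20 nM, 3 and 0 in WT-labelled cells at 20 nM, 7 and 0 in KO-labelled cells at 2 nM, and 6 and 1 in WT-labelled cells at 2 nM. Of the pump subunits 33.3% to 77.8% were thus higher and 0.0% to 11.1% lower, against 17.4% to 21.6% and 18.8% to 22.2% of all genes. These shares include untreated replicates 4 and 10. Without those arrays, ATP6V1A (-0.86), ATP6V1H (-0.62), ATP6V1D (-0.40) and ATP6V0D1 (-0.23) were called lower in KO-labelled cells at 20 nM. ATP6V1C1 (0.51), ATP6V1E1 (0.34), ATP6V0E1 (0.21) and ATP6V1B2 (0.18) were called higher there. In WT-labelled cells at 20 nM only ATP6V1A (-0.25) was then called lower. ATP6V0E1, a small V0 subunit, read 732, 699 and 770.1 in KO-labelled cells at 20 nM, against 524, 624 and 646 untreated, and 838, 846 and 900.4 in WT-labelled cells, against 479.7, 639.9 and 581 untreated. At 2 nM ATP6V0E1 read 838, 778 and 848 in KO-labelled cells, against 435, 485, 489 and 569 untreated, and 552, 615 and 604 in WT-labelled cells, against 466, 456, 437 and 493 untreated. No pair overlapped. ATP6V0E1 rose by 0.30 ± 0.099 and 0.61 ± 0.099 at 20 nM (adjusted p = 0.0217 and 4.53e-05) and by 0.74 ± 0.093 and 0.35 ± 0.093 at 2 nM (adjusted p = 2.3e-06 and 0.00542), in KO-labelled and WT-labelled cells in turn. The call in KO-labelled cells at 20 nM was lost without any 1 of untreated replicate 4 and 20 nM replicates 1 and 3 (adjusted p = 0.0504 to 0.118). It was lost also with the slide as a random block (adjusted p = 0.0621).

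ATP6V1C1, the V1 subunit that links the sectors when the pump assembles, read 128, 118 and 138 in KO-labelled cells at 20 nM, against 109, 88.4 and 90.4 untreated, and 183, 196 and 175 in WT-labelled cells, against 183, 128 and 129 untreated. At 2 nM ATP6V1C1 read 207, 205 and 217 in KO-labelled cells, against 175, 167, 158 and 158 untreated, and 159.7, 163 and 148 in WT-labelled cells, against 130.2, 119, 116 and 106 untreated. Only in WT-labelled cells at 20 nM did an untreated array, replicate 4, fall within the treated range. ATP6V1C1 rose by 0.42 ± 0.11 and 0.35 ± 0.11 at 20 nM (adjusted p = 0.00555 and 0.0149) and by 0.35 ± 0.10 and 0.42 ± 0.10 at 2 nM (adjusted p = 0.00944 and 0.00361), in KO-labelled and WT-labelled cells in turn. The call in WT-labelled cells at 20 nM was lost without any 1 of untreated replicates 5 and 6 and 20 nM replicate 2 (adjusted p = 0.0627 to 0.0919). The dimmer ATP6V1C1 probe gave -0.18 ± 0.23 in KO-labelled cells at 20 nM (adjusted p = 0.688), the opposite sign. ATP6V1B2, a catalytic-hexamer subunit of V1, read 1559, 1707 and 1706 in KO-labelled cells at 20 nM, against 1195, 1514 and 1408 untreated, and 1501, 1392 and 1437 in WT-labelled cells, against 1078, 1357 and 1362 untreated. At 2 nM ATP6V1B2 read 1674, 1530.1 and 1534 in KO-labelled cells, against 931, 887, 922 and 1063 untreated, and 1455, 1565 and 1558 in WT-labelled cells, against 1055, 1067, 1094 and 1027 untreated. The groups of series 2 were far apart and those of series 1 nearly touched. ATP6V1B2 differed by 0.28 ± 0.088 and 0.20 ± 0.088 at 20 nM (adjusted p = 0.0167 and 0.0793) and by 0.73 ± 0.082 and 0.52 ± 0.082 at 2 nM (adjusted p = 5.03e-07 and 4.43e-05), in KO-labelled and WT-labelled cells in turn. The ATP6V1B2 call in KO-labelled cells at 20 nM was lost without any 1 of untreated replicate 4 and 20 nM replicates 2 and 3 (adjusted p = 0.0576 to 0.105).

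ATP6V1H, the regulatory V1 subunit, was picked out after its values were seen because its 20 nM response depended on the probe. ATP6V1H read 303, 305 and 314 in KO-labelled cells at 20 nM, against 230.3, 484 and 459.5 untreated, and 418, 451 and 480.5 in WT-labelled cells, against 266, 403 and 397 untreated. At 2 nM ATP6V1H read 464, 554 and 499 in KO-labelled cells, against 196, 207, 194 and 258 untreated, and 329, 328 and 318 in WT-labelled cells, against 216, 219, 224 and 242 untreated. In series 1 untreated replicate 4 was well below replicates 5 and 6 in each label, and the arms overlapped in KO-labelled cells. The 20 nM differences were -0.27 ± 0.20 and 0.36 ± 0.20 (adjusted p = 0.339 and 0.167), and those at 2 nM 1.25 ± 0.19 and 0.53 ± 0.19 (adjusted p = 1.98e-05 and 0.0339), in KO-labelled and WT-labelled cells in turn. The dimmer ATP6V1H probe rose in all 4, by 1.02 ± 0.14 and 1.15 ± 0.14 at 20 nM (adjusted p = 1.08e-05 and 1.63e-06) and 1.84 ± 0.13 and 1.27 ± 0.13 at 2 nM (adjusted p = 1.08e-09 and 3e-07). Both ATP6V1H probes were called lower for 20 minus 2 nM in KO-labelled cells (-1.52 ± 0.28, adjusted p over all probes = 0.000606, and -0.82 ± 0.19, adjusted p = 0.00472) and neither in WT-labelled cells. The call of the brighter ATP6V1H probe in WT-labelled cells at 2 nM was lost without any 1 of 6 of its 7 arrays, all but untreated replicate 10 (adjusted p = 0.0589 to 0.0849).

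The remaining pump subunits moved less evenly. ATP6V1A, the catalytic subunit, read 809, 802 and 816 in KO-labelled cells at 20 nM, against 1066, 1566 and 1369.9 untreated, and fell (-0.70 ± 0.11, adjusted p = 4.47e-05). It gave -0.26 ± 0.11 in WT-labelled cells at 20 nM (adjusted p = 0.0664), 0.087 ± 0.10 in KO-labelled cells at 2 nM (adjusted p = 0.597) and -0.26 ± 0.10 in WT-labelled cells at 2 nM, where the adjusted p lay just under the threshold and rounds to 0.05. That last call was lost without any 1 of 5 of its 7 arrays, all but untreated replicate 7 and 2 nM replicate 2 (adjusted p = 0.0558 to 0.175). ATP6V1E1, a stator subunit, rose in KO-labelled cells at 20 nM (0.26 ± 0.084, adjusted p = 0.0212), in WT-labelled cells at 20 nM (0.33 ± 0.084, adjusted p = 0.00316) and in KO-labelled cells at 2 nM (0.43 ± 0.078, adjusted p = 0.000154). The first of these was lost without any 1 of untreated replicate 6 and 20 nM replicates 1 and 2 (adjusted p = 0.0515 to 0.165). ATP6V1D, part of the central stalk, rose at 2 nM by 0.40 ± 0.13 in KO-labelled cells (adjusted p = 0.02) and 0.55 ± 0.13 in WT-labelled cells (adjusted p = 0.00302). The KO-labelled call was lost without any 1 of untreated replicate 8 and 2 nM replicate 2 (adjusted p = 0.0514 to 0.0559). ATP6AP1, an accessory subunit, rose at 2 nM by 0.59 ± 0.13 in KO-labelled cells (adjusted p = 0.000798) and 0.52 ± 0.13 in WT-labelled cells (adjusted p = 0.00342), and its 20 nM differences were 0.072 and 0.087. ATP6V0D1, a V0 subunit, was called in no response, with differences between -0.14 and 0.0030.

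The Rag and folliculin genes act in nutrient sensing upstream of TFEB and TFE3. Of these 4, 2 were called higher and 1 lower at 20 nM in each label, and 3 higher and 0 lower at 2 nM in each label. With 4 genes the shares are coarse, 50% to 75.0% higher and 0.0% to 25.0% lower, where 17.4% to 21.6% and 18.8% to 22.2% of all genes were. RRAGC, a Rag GTPase, rose in all 4 responses. RRAGC read 166, 146 and 158 in KO-labelled cells at 20 nM, against 74.2, 130.2 and 113 untreated, and 110.1, 97.6 and 109.5 in WT-labelled cells, against 58.8, 85.2 and 77.7 untreated. At 2 nM RRAGC read 117, 108 and 96.9 in KO-labelled cells, against 54.6, 59.7, 49.4 and 42.5 untreated, and 120.1, 97.4 and 113 in WT-labelled cells, against 33.9, 39.5, 52.3 and 51.0 untreated. The treated arrays were above the untreated ones in each pair, but untreated replicate 4 was the lowest of its group in series 1. RRAGC rose by 0.60 ± 0.19 and 0.53 ± 0.19 at 20 nM (adjusted p = 0.0189 and 0.0319) and by 1.06 ± 0.18 and 1.34 ± 0.18 at 2 nM (adjusted p = 7.35e-05 and 8.57e-06), in KO-labelled and WT-labelled cells in turn. When untreated replicate 4 of the same label was left out, the 20 nM differences of RRAGC were 0.36 (adjusted p = 0.126) in KO-labelled and 0.38 (adjusted p = 0.163) in WT-labelled cells. In all, the KO-labelled call was lost without any 1 of untreated replicate 4 and 20 nM replicate 1 (adjusted p = 0.0624 to 0.126). In WT-labelled cells the RRAGC call was lost without any 1 of untreated replicate 4 and 20 nM replicates 1 and 3 (adjusted p = 0.0813 to 0.163).

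RRAGD, the close paralogue of RRAGC, read 226, 216 and 201 in KO-labelled cells at 20 nM, against 128, 165 and 176 untreated, and 213, 228 and 210.1 in WT-labelled cells, against 135, 206 and 209 untreated. At 2 nM RRAGD read 188, 175 and 174 in KO-labelled cells, against 103, 109, 101 and 125 untreated, and 187, 185 and 199 in WT-labelled cells, against 88.9, 103, 111 and 116 untreated. The 2 nM arms were clearly apart, and in WT-labelled cells at 20 nM the treated arrays were just above untreated replicates 5 and 6. RRAGD rose in KO-labelled cells at 20 nM (0.47 ± 0.14, adjusted p = 0.0124, or 0.33 and 0.074 without untreated replicate 4) and at 2 nM in KO-labelled (0.71 ± 0.13, adjusted p = 0.000186) and WT-labelled cells (0.87 ± 0.13, adjusted p = 3.34e-05). In WT-labelled cells at 20 nM RRAGD gave 0.27 ± 0.14 (adjusted p = 0.136). FLCN, folliculin, the GTPase-activating protein for RRAGC and RRAGD, read 80.3, 90.1 and 78.8 in KO-labelled cells at 20 nM, against 36.4, 72.5 and 76.5 untreated, and 74.5, 83.5 and 88.8 in WT-labelled cells, against 31.8, 48.5 and 51.9 untreated. At 2 nM FLCN read 91.4, 93.3 and 95.2 in KO-labelled cells, against 44.9, 44.2, 54.1 and 40.1 untreated, and 85.4, 104 and 88.9 in WT-labelled cells, against 56.8, 54.6, 54.5 and 46.7 untreated. Again untreated replicate 4 was lowest in series 1. FLCN rose in WT-labelled cells at 20 nM (0.93 ± 0.21, adjusted p = 0.00136), in KO-labelled cells at 2 nM (1.04 ± 0.20, adjusted p = 0.000264) and in WT-labelled cells at 2 nM (0.81 ± 0.20, adjusted p = 0.00324), and gave 0.50 ± 0.21 in KO-labelled cells at 20 nM (adjusted p = 0.0752). FNIP1, its binding partner, went the other way at 20 nM. FNIP1 read 38.8, 38.6 and 36.1 in KO-labelled cells at 20 nM, against 49.6, 84.1 and 70.6 untreated, and 36.7, 46.9 and 38.0 in WT-labelled cells, against 56.3, 63.9 and 65.3 untreated. It fell at 20 nM by log2 differences of -0.81 ± 0.15 and -0.62 ± 0.15 (adjusted p = 0.00035 and 0.00296), and gave -0.30 ± 0.14 and -0.14 ± 0.14 at 2 nM (adjusted p = 0.103 and 0.546), in KO-labelled and WT-labelled cells in turn.

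Autophagy delivers cytoplasm to the lysosome in double-membraned vesicles. With all arrays, none of the 6 autophagy genes was called higher at 20 nM and 3 were called lower in each label. At 2 nM, 2 were higher and 2 lower in KO-labelled cells and 3 higher and 2 lower in WT-labelled cells. Of all genes 17.4% to 21.6% were higher and 18.8% to 22.2% lower, against 0.0% to 50% and 33.3% to 50% of these 6. Without untreated replicates 4 and 10, SQSTM1 (0.15) and ULK1 (0.30) were called higher in KO-labelled cells at 20 nM. GABARAPL1 (-2.2), WIPI1 (-1.31), UVRAG (-0.63) and MAP1LC3B (-0.29) were called lower there. In WT-labelled cells at 20 nM all of these genes but ULK1 were then called lower. WIPI1, which binds the lipid PI3P on the forming membrane, read 18.5, 23.5 and 28.5 in KO-labelled cells at 20 nM, against 71.0, 56.7 and 58.0 untreated, and 25.3, 23.2 and 24.8 in WT-labelled cells, against 65.6, 151 and 149.5 untreated. At 2 nM WIPI1 read 24.2, 22.9 and 28.2 in KO-labelled cells, against 44.0, 44.7, 45.3 and 68.6 untreated, and 23.3, 26.7 and 27.1 in WT-labelled cells, against 36.7, 37.4, 34.7 and 72.2 untreated. The highest treated array read 28.5 and the lowest untreated one 34.7. WIPI1 fell by log2 differences of -1.41 ± 0.29 and -2.23 ± 0.29 at 20 nM (adjusted p = 0.000708 and 3.8e-06) and -0.99 ± 0.27 and -0.75 ± 0.27 at 2 nM (adjusted p = 0.00548 and 0.0369), in KO-labelled and WT-labelled cells in turn. The WIPI1 call in WT-labelled cells at 2 nM was lost without untreated replicate 10 (-0.50, adjusted p = 0.133), and in all without any 1 of untreated replicate 10 and 2 nM replicates 1, 2 and 3 (adjusted p = 0.0675 to 0.133).

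SQSTM1, the receptor p62 that links cargo to the autophagy membrane, read 497, 476 and 548 in KO-labelled cells at 20 nM, against 922, 451 and 461 untreated, and 637, 626 and 672 in WT-labelled cells, against 952, 1056 and 1134 untreated. At 2 nM SQSTM1 read 618, 595 and 559 in KO-labelled cells, against 1099, 1070.2, 1092 and 1162 untreated, and 606, 546 and 559.7 in WT-labelled cells, against 732, 714, 733 and 973 untreated. In KO-labelled cells of series 1 untreated replicate 4 was close to the untreated WT-labelled arrays, and the other untreated arrays were lower than all treated ones. SQSTM1 fell in WT-labelled cells at 20 nM (-0.70 ± 0.18, adjusted p = 0.00385), in KO-labelled cells at 2 nM (-0.91 ± 0.17, adjusted p = 0.000205) and in WT-labelled cells at 2 nM (-0.46 ± 0.17, adjusted p = 0.042). The WT-labelled call at 2 nM was lost without any 1 of 6 of its 7 arrays, all but untreated replicate 8 (adjusted p = 0.0511 to 0.132). In KO-labelled cells at 20 nM SQSTM1 gave -0.19 ± 0.18 (adjusted p = 0.506), and without untreated replicates 4 and 10 the sign turned and it was called (0.15 ± 0.058, adjusted p = 0.0373).

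GABARAPL1 and MAP1LC3B encode Atg8-family proteins that are attached to lipid on the autophagy membrane, and their probes may also bind the near-identical GABARAPL3 and MAP1LC3B2. GABARAPL1 read 400.2, 371 and 399 in KO-labelled cells at 20 nM, against 494, 1729 and 1792 untreated, and 315, 270.3 and 304 in WT-labelled cells, against 598, 1842 and 1791 untreated. At 2 nM GABARAPL1 read 304, 316 and 324 in KO-labelled cells, against 324, 379, 381 and 768 untreated, and 432, 391 and 396 in WT-labelled cells, against 252, 262, 271 and 535 untreated. Untreated replicates 5 and 6 of series 1 were far above every other array of this gene, and replicate 4 was much closer to the untreated arrays of series 2. GABARAPL1 fell at 20 nM (-1.56 ± 0.46, adjusted p = 0.0101, in KO-labelled cells and -2.08 ± 0.46, adjusted p = 0.000902, in WT-labelled cells) and gave -0.47 ± 0.42 and 0.38 ± 0.42 at 2 nM (adjusted p = 0.445 and 0.616). The KO-labelled call at 20 nM was lost without untreated replicate 5 (adjusted p = 0.0605) or 6 (adjusted p = 0.0639). All 4 GABARAPL1 responses were called without untreated replicates 4 and 10, -2.18 ± 0.074 and -2.62 ± 0.074 at 20 nM (adjusted p = 3.31e-12 and 2.56e-13) and, in opposite directions, -0.19 ± 0.066 and 0.63 ± 0.066 at 2 nM (adjusted p = 0.0199 and 7.36e-07), in KO-labelled and WT-labelled cells in turn. Only untreated replicates 5 and 6 of each label then remain in series 1. The standard error at 20 nM fell from 0.46 because the arrays that stood apart were removed, so these p-values overstate the precision.

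The values of MAP1LC3B and ULK1 on every array are given by choice after they were seen. MAP1LC3B, the LC3 protein used to follow autophagy, read 1352, 1427 and 1275 in KO-labelled cells at 20 nM, against 504, 1779 and 1530.2 untreated, and 786, 733 and 811 in WT-labelled cells, against 305, 975 and 958 untreated. At 2 nM MAP1LC3B read 641, 666 and 656 in KO-labelled cells, against 267, 226, 253 and 336 untreated, and 1344, 1350.2 and 1422 in WT-labelled cells, against 380.3, 442, 393 and 402 untreated. In series 1 the treated arrays lay between untreated replicate 4, which was low, and replicates 5 and 6, and in series 2 they were clearly higher than all untreated ones. MAP1LC3B rose at 2 nM (1.29 ± 0.36, adjusted p = 0.00588, in KO-labelled and 1.77 ± 0.36, adjusted p = 0.000586, in WT-labelled cells) and gave 0.28 ± 0.38 and 0.24 ± 0.38 at 20 nM (adjusted p = 0.699 and 0.756). Without untreated replicates 4 and 10 the 20 nM differences of MAP1LC3B turned to -0.29 ± 0.079 and -0.32 ± 0.079 (adjusted p = 0.00565 and 0.00287).

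ULK1, the kinase that starts autophagy, read 401, 419.7 and 462 in KO-labelled cells at 20 nM, against 293, 320.3 and 374 untreated, and 467, 462 and 530.2 in WT-labelled cells, against 299, 417 and 464 untreated. At 2 nM ULK1 read 675, 667 and 692 in KO-labelled cells, against 246, 226, 266 and 372 untreated, and 660.3, 668 and 640.0 in WT-labelled cells, against 267, 232, 246 and 326 untreated. The 2 nM arrays were far above their untreated arrays, including replicate 10. ULK1 rose at 2 nM by 1.32 ± 0.16 in KO-labelled cells (adjusted p = 1.05e-06) and 1.31 ± 0.16 in WT-labelled cells (adjusted p = 1.89e-06), with 0.38 ± 0.17 and 0.33 ± 0.17 at 20 nM (adjusted p = 0.0815 and 0.127). UVRAG, which binds beclin 1 in the kinase complex that makes PI3P, fell in KO-labelled cells at 20 nM (-0.39 ± 0.13, adjusted p = 0.0185), although its arms overlapped, and rose in WT-labelled cells at 2 nM (0.38 ± 0.12, adjusted p = 0.0158). The KO-labelled call was lost without any 1 of untreated replicates 5 and 6 and 20 nM replicate 3 (adjusted p = 0.0507 to 0.151).

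**Figure D4:**
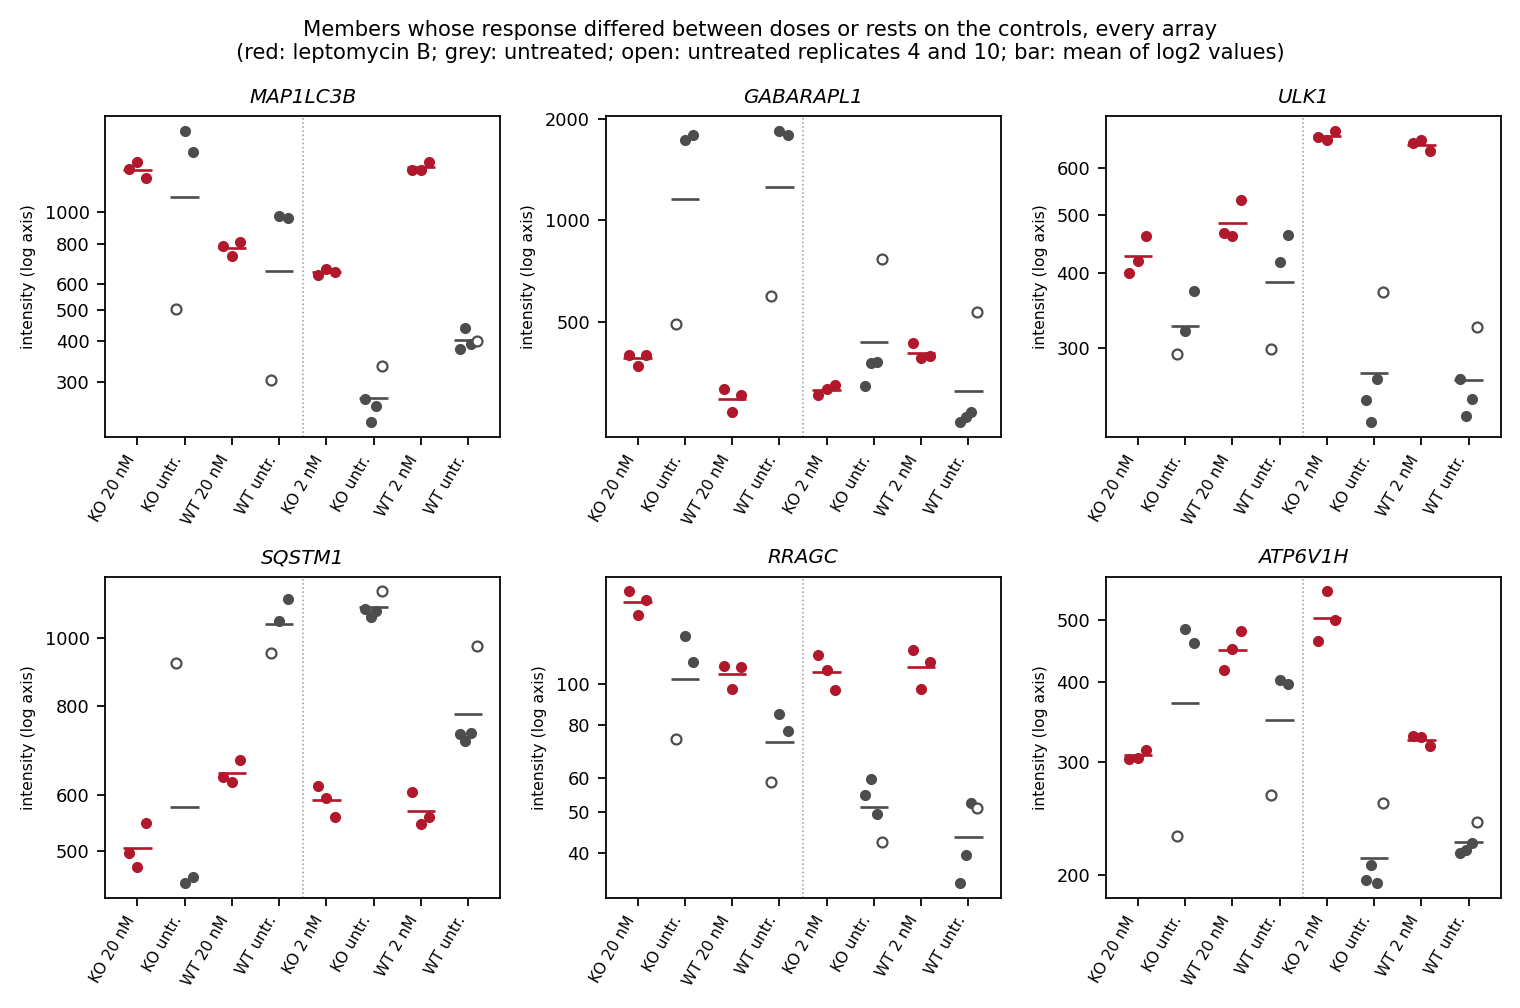
Intensity on every array (log axis) of MAP1LC3B, GABARAPL1, ULK1, SQSTM1, RRAGC and ATP6V1H, chosen after their values were seen. Red points are leptomycin B arrays and grey points untreated arrays, with untreated replicates 4 and 10 open. Bars are means of log2 values, and the dotted line separates series 1 (20 nM, left) from series 2 (2 nM, right). ULK1 and MAP1LC3B are higher with leptomycin B at 2 nM, and untreated replicate 4 differs from replicates 5 and 6 for GABARAPL1 and MAP1LC3B.

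The 20 nM response was set against the 2 nM response of the same label, each measured against its own untreated arrays. In KO-labelled cells 3 of 41 genes had a higher difference at 20 nM and 7 a lower one, against 10.5% and 10.9% of all genes. In WT-labelled cells 1 was higher and 11 lower, against 9.57% and 9.94% of all genes, with a median of -0.29 (all genes 0.00), and 5 of the 11 were autophagy genes. In KO-labelled cells the 4 pump subunits ATP6V1H, ATP6V1A, ATP6V1B2 and ATP6V0E1 were among the 7. SLC17A5 fell further at 20 nM than at 2 nM in both labels (-1.14 ± 0.12, adjusted p = 9.64e-07, in KO-labelled and -0.53 ± 0.12, adjusted p = 0.00352, in WT-labelled cells). ULK1 was likewise lower at 20 nM in both (-0.93 ± 0.23, adjusted p = 0.00638, and -0.98 ± 0.23, adjusted p = 0.00519), and CTSC higher in KO-labelled cells (1.30 ± 0.19, adjusted p = 5.44e-05). In WT-labelled cells CTSC was also called (0.55 ± 0.19, adjusted p = 0.0445). This CTSC call was lost without any 1 of 11 of its 13 arrays, all but untreated replicate 4 and untreated replicate 9 (adjusted p = 0.055 to 0.131). The mean over CTSC probes gave 0.13 (adjusted p = 0.436), and CTSC probe 4086 gave -0.17 ± 0.18 (adjusted p = 0.661). In KO-labelled cells the difference was -1.52 ± 0.28 for ATP6V1H (adjusted p = 0.00058) and -0.79 ± 0.15 for ATP6V1A (adjusted p = 0.000856). SQSTM1 was called higher there (0.72 ± 0.25, adjusted p = 0.0462), but the call was lost without any 1 of 12 of its 13 arrays, all but untreated replicate 4 (adjusted p = 0.0614 to 0.153). In WT-labelled cells the difference was -2.46 ± 0.62 for GABARAPL1 (adjusted p = 0.00921), -1.53 ± 0.52 for MAP1LC3B (adjusted p = 0.0467), -1.48 ± 0.40 for WIPI1 (adjusted p = 0.0133) and -0.80 ± 0.27 for RRAGC (adjusted p = 0.0395). The MAP1LC3B call was lost without any 1 of 12 of its 13 arrays, all but untreated replicate 4 (adjusted p = 0.0574 to 0.135). It was also lost with a floor of 20 (adjusted p = 0.051), with no filter (adjusted p = 0.0647) and with only the arrays of the comparison (adjusted p = 0.0601). The RRAGC call was lost without any 1 of 9 of its 13 arrays, all but untreated replicate 4, untreated replicates 9 and 10, and 2 nM replicate 2 (adjusted p = 0.0583 to 0.109). It was lost too with no filter (adjusted p = 0.0548) and with only the arrays of the comparison (adjusted p = 0.0552), which also ended the WIPI1 call (adjusted p = 0.0593). LAMP2 was called in KO-labelled cells (0.54 ± 0.18, adjusted p = 0.0429) on its representative probe only. The other LAMP2 probes gave 0.0049 ± 0.15 and 0.24 ± 0.18 (adjusted p = 1.0 and 0.42), and the mean over probes 0.26 (adjusted p = 0.184). The LAMP2 call was lost without any 1 of 10 of its 13 arrays, all but untreated replicate 4 and untreated replicates 7 and 9 (adjusted p = 0.051 to 0.132). In all, 4 of the 10 calls in KO-labelled and 6 of the 12 in WT-labelled cells were lost for at least 1 single array. Without untreated replicates 4 and 10 the counts were 5 higher and 19 lower in KO-labelled cells, against 24.2% and 23.7% of all genes, and 3 higher and 23 lower in WT-labelled cells, against 21.7% and 22.6% of all genes. NPC1, for which neither difference was called (-0.71 ± 0.32, adjusted p = 0.122, in KO-labelled and -0.66 ± 0.32, adjusted p = 0.161, in WT-labelled cells), was then called lower at 20 nM in both (-1.02 ± 0.13, adjusted p = 9.92e-06, and -1.08 ± 0.13, adjusted p = 6.56e-06). Dose and slide series cannot be told apart in these values.

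**Figure D5:**
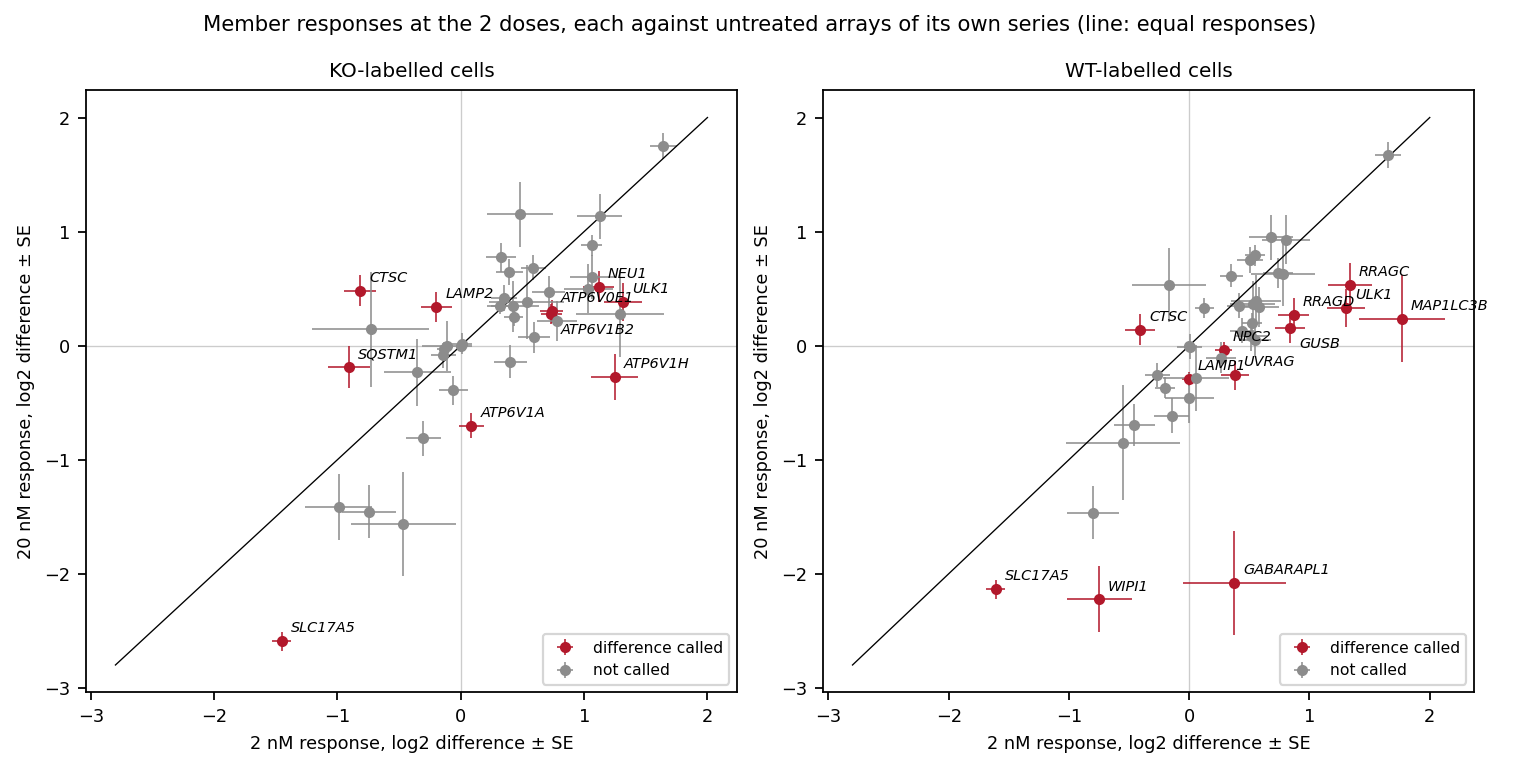
Log2 difference (leptomycin B minus untreated, ± SE) at 20 nM (vertical axis) against that at 2 nM (horizontal axis) for each of the 41 genes, in KO-labelled cells (left) and WT-labelled cells (right). The line marks equal responses, and red points are genes for which the difference between doses was called. Most red points lie below the line in both panels, 7 of 10 in KO-labelled and 11 of 12 in WT-labelled cells.

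The response of KO-labelled cells minus that of WT-labelled cells was called for 4 genes at 20 nM, 3 higher and 1 lower, against 4.92% and 3.93% of all genes, and for 1 gene, which was higher, at 2 nM, where 5.94% of all genes were higher and 5.99% lower. At 20 nM GUSB (0.62 ± 0.18, adjusted p = 0.0423), CTSD (0.55 ± 0.15, adjusted p = 0.0298) and NPC2 (0.39 ± 0.10, adjusted p = 0.023) rose more in KO-labelled cells, and SLC17A5 fell more in them (-0.46 ± 0.12, adjusted p = 0.0205). At 2 nM CTSA rose more in KO-labelled cells (0.51 ± 0.12, adjusted p = 0.00687). These calls share their untreated arrays with the responses above. With the slide as a random block in limma 0 of the 4 calls at 20 nM held (6 genes had an unadjusted p under 0.05, against 10 without the block). Each of the 4 was also lost for some single arrays. GUSB was lost without any 1 of 9 of its 12 arrays, all but KO-labelled untreated replicate 6, WT-labelled untreated replicate 4, and WT-labelled 20 nM replicate 3 (adjusted p = 0.0532 to 0.114). CTSD was lost without any 1 of 9 of its 12 arrays, all but KO-labelled untreated replicate 4, WT-labelled untreated replicate 4, and WT-labelled 20 nM replicate 3 (adjusted p = 0.0553 to 0.0913). NPC2 was lost without any 1 of KO-labelled untreated replicate 6, WT-labelled untreated replicate 6, KO-labelled 20 nM replicates 1 and 3, and WT-labelled 20 nM replicate 1 (adjusted p = 0.0501 to 0.0604). SLC17A5 was lost without any 1 of KO-labelled untreated replicates 5 and 6 and KO-labelled 20 nM replicate 2 (adjusted p = 0.0511 to 0.0641). The replicate number was also used as a block. That pairing is not borne out for the treated arrays and was not shown for each number of the untreated ones. It gave 8 genes higher and 5 lower at 20 nM, against 11.7% and 10.4% of all genes. At 2 nM they were 6 higher and 7 lower, against 11.8% and 11.4%, and GABARAPL1 was among the lower (log2 -0.84, adjusted p = 4.68e-05). Without untreated replicates 4 and 10, 11 genes were higher and 8 lower at 20 nM, against 17.6% and 16.0% of all genes, and 10 higher and 8 lower at 2 nM, against 15.3% and 15.2%. CTSC depended on the probe. With all arrays its probe 4086 was called at 20 nM (0.76 ± 0.19, adjusted p over all probes = 0.0159) and 2 nM (-0.94 ± 0.18, adjusted p = 0.00121). The probe that stands for CTSC in the fit was called at neither dose.

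Without treatment, KO-labelled minus WT-labelled cells gave 3 genes higher and 5 lower in series 1, against 7.07% and 7.79% of all genes (14.9% in either direction), and 3 higher and 0 lower in series 2, against 4.36% and 4.79% (9.15% in either direction). With the replicate number as a block, 6 were higher and 13 lower in series 1, against 15.2% and 15.6% of all genes. With the same block 7 were higher and 1 lower in series 2, against 10.2% and 11.3%. The block assumes that same-numbered untreated arrays are pairs, which was not shown for each number. In series 1 the lower genes included CTSD (-0.91 ± 0.11, adjusted p = 1.28e-05), SQSTM1 (-0.86 ± 0.18, adjusted p = 0.00311), WIPI1 (-0.89 ± 0.29, adjusted p = 0.0455), NPC2 (-0.74 ± 0.074, adjusted p = 1.12e-06) and ATP6V1C1 (-0.60 ± 0.11, adjusted p = 0.00102). Those higher were UVRAG (0.62 ± 0.13, adjusted p = 0.00224), ATP6V1D (0.48 ± 0.14, adjusted p = 0.0294) and ATP6V0D1 (0.42 ± 0.11, adjusted p = 0.015). Of these 8, the WIPI1 call was lost without any 1 of KO-labelled untreated replicates 5 and 6 and WT-labelled untreated replicates 5 and 6 (adjusted p = 0.139 to 0.18). That of ATP6V1D was lost without any 1 of KO-labelled untreated replicates 5 and 6 and WT-labelled untreated replicate 4 (adjusted p = 0.13 to 0.201). That of ATP6V0D1 was lost without any 1 of KO-labelled untreated replicates 5 and 6 (adjusted p = 0.0524 to 0.116). In series 2 NPC2 (0.44 ± 0.064, adjusted p = 0.000123) and ATP6V1C1 (0.48 ± 0.096, adjusted p = 0.00256) were higher, the opposite of series 1, as was the case for CDKN1A. SLC17A5 was the third (0.46 ± 0.073, adjusted p = 0.000335). Without untreated replicates 4 and 10 the counts were 8 higher and 13 lower in series 1, where 19.9% and 19.6% of all genes were, and 13 higher and 5 lower in series 2, where 13.1% and 14.9% were. For the 8 higher of 41 in series 1 that is close to the share of all genes.

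Untreated replicates 4 and 10 were each set against the rest of their group. Against the other untreated arrays of its group, KO-labelled replicate 4 was more than 2-fold higher for 2 of the 41 genes and more than 2-fold lower for 6, against 5.15% and 5.41% of all genes. WT-labelled replicate 4 was higher for 2 and lower for 4, against 3.49% and 3.42%. Replicate 10 was more than 2-fold higher for 2 genes and lower for 0 in each label, against 2.57% and 1.77% of all genes in KO-labelled and 1.59% and 1.02% in WT-labelled cells. Leaving these 4 arrays out gave 20 genes higher and 12 lower in KO-labelled cells at 20 nM, against 26.7% and 27.2% of all genes, and 15 and 12 in WT-labelled cells, against 27.2% and 28.7%. At 2 nM it gave 25 and 7 in KO-labelled cells, against 27.6% and 27.7% of all genes, and 25 and 7 in WT-labelled cells, against 24.6% and 26.7%. With these arrays out, 8 genes were called in opposite directions in different responses: ATP6V1A, ATP6V1D, ATP6V1H, CTSC, GABARAPL1, MAP1LC3B, SQSTM1 and UVRAG. Across the 4 responses 28 calls were gained and 1, that of RRAGC in KO-labelled cells at 20 nM (0.36 ± 0.15, adjusted p = 0.0528), was lost. The gained calls follow in part from the smaller spread once arrays that stood apart were removed. Those of GAA, GABARAPL1, MAP1LC3B, SQSTM1 and TFE3 are given above. In KO-labelled cells at 20 nM the others were 0.41 ± 0.085 for LAMP2 (adjusted p = 0.000628), 0.30 ± 0.088 for ULK1 (adjusted p = 0.00867) and 0.20 ± 0.043 for PSAP (adjusted p = 0.000911). The lower ones there were -0.71 ± 0.075 for GLA (adjusted p = 8.97e-07), -0.62 ± 0.061 for ATP6V1H (adjusted p = 4.1e-07), -0.40 ± 0.056 for ATP6V1D (adjusted p = 1.36e-05) and -0.23 ± 0.088 for ATP6V0D1 (adjusted p = 0.036). In WT-labelled cells at 20 nM the others were 1.03 ± 0.076 for CTSB (adjusted p = 1.16e-08), 0.44 ± 0.043 for PSAP (adjusted p = 2.72e-07), 0.31 ± 0.08 for CTSC (adjusted p = 0.00305) and 0.17 ± 0.061 for ATP6V1H (adjusted p = 0.0307). Lower in these cells were -0.60 ± 0.075 for GLA (adjusted p = 4.45e-06), -0.25 ± 0.058 for ATP6V1A (adjusted p = 0.00154) and -0.21 ± 0.069 for UVRAG (adjusted p = 0.0171). The brighter ATP6V1H probe was thus called at 20 nM in opposite directions in the 2 labels. The dimmer probe, with all arrays, rose at 20 nM in both (1.02 ± 0.14 in KO-labelled and 1.15 ± 0.14 in WT-labelled cells). At 2 nM the others were 0.55 ± 0.068 for CTSB (adjusted p = 3.75e-06), 0.14 ± 0.052 for ATP6V1A (adjusted p = 0.0265) and -0.46 ± 0.068 for GLA (adjusted p = 2.42e-05) in KO-labelled cells. In WT-labelled cells they were 0.35 ± 0.076 for LAMP2 (adjusted p = 0.00103) and -0.24 ± 0.09 for HEXA (adjusted p = 0.0386). ATP6V1D, called lower in KO-labelled cells at 20 nM, remained called higher at 2 nM (0.43 ± 0.05 and 0.57 ± 0.05, in KO-labelled and WT-labelled cells in turn).

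Further genes of the same pathways were taken from a list of 147, of which 124 were tested. Among 26 other lysosomal hydrolases and activators, 11 were higher and 1 lower in KO-labelled cells at 20 nM, 12 and 1 in WT-labelled cells at 20 nM, 12 and 1 in KO-labelled cells at 2 nM, and 10 and 1 in WT-labelled cells at 2 nM. That is 38.5% to 46.2% higher, where 17.4% to 21.6% of all genes were, and 3.85% lower in each response, where 18.8% to 22.2% were. IDS, the iduronate sulfatase, rose by 1.37 ± 0.17 and 1.55 ± 0.17 at 20 nM (adjusted p = 4.48e-06 and 5.71e-07), in KO-labelled and WT-labelled cells in turn, and by 1.75 ± 0.16 in KO-labelled cells at 2 nM (adjusted p = 4.25e-08). LGMN, the asparagine-specific protease legumain, rose by 1.36 ± 0.14 and 1.32 ± 0.14 at 20 nM (adjusted p = 4.45e-07 and 3.66e-07) and by 1.98 ± 0.13 in WT-labelled cells at 2 nM (adjusted p = 1.24e-09). CTSV, the paralogue of CTSL, rose by 1.65 ± 0.21 in KO-labelled cells at 20 nM (adjusted p = 5.08e-06) and by 1.61 ± 0.20 in WT-labelled cells at 2 nM (adjusted p = 2.61e-06).

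Among 23 other lysosomal membrane and sorting genes the counts in the same order were 9 higher and 3 lower, 7 and 6, 11 and 3, and 5 and 3. These are 21.7% to 47.8% higher and 13.0% to 26.1% lower, against 17.4% to 21.6% and 18.8% to 22.2% of all genes. CTNS, the cystine exporter, fell at 2 nM (-1.34 ± 0.11, adjusted p = 1.25e-08, in KO-labelled and -1.44 ± 0.11, adjusted p = 1.06e-08, in WT-labelled cells), as SLC17A5 did. SLC11A2, an iron transporter, fell by log2 differences of -1.68 ± 0.21 in WT-labelled cells at 20 nM (adjusted p = 2.59e-06) and -1.65 ± 0.20 in KO-labelled cells at 2 nM (adjusted p = 1.32e-06). Among 13 other pump genes they were 4 and 1, 5 and 3, 5 and 2, and 4 and 2, or 30.8% to 38.5% higher and 7.69% to 23.1% lower, against the same shares of all genes. ATP6V0A2, a V0 subunit, fell at 2 nM (-1.82 ± 0.19, adjusted p = 1.61e-07, in KO-labelled and -1.21 ± 0.19, adjusted p = 3.66e-05, in WT-labelled cells). Of 20 other genes of the MiT, Rag and mTORC1 branch, 1 was higher and 8 lower in KO-labelled cells at 20 nM, 3 and 9 in WT-labelled cells at 20 nM, 4 and 6 in KO-labelled cells at 2 nM, and 1 and 6 in WT-labelled cells at 2 nM. The shares were 5.0% to 20.0% higher and 30.0% to 45.0% lower, against 17.4% to 21.6% and 18.8% to 22.2% of all genes. DEPDC5, part of the GATOR1 complex that inhibits mTORC1, fell at 20 nM to a mean intensity of 9.1 in KO-labelled cells, against 27.9 untreated, and 10.4 in WT-labelled cells, against 33.4 untreated. In each label 1 of its 3 treated arrays was below the floor, so DEPDC5 was at least 2.61-fold and 2.91-fold lower (adjusted p = 3.85e-06 and 6.06e-07), in KO-labelled and WT-labelled cells in turn. In WT-labelled cells at 2 nM all treated arrays of DEPDC5 were at or below the floor, so it was at least 2.03-fold lower (adjusted p = 4.95e-05). TSC1, another inhibitor of the pathway, rose in KO-labelled cells at 2 nM (1.79 ± 0.24, adjusted p = 5.55e-06).

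Of 42 other autophagy genes, 4 were higher and 10 lower in KO-labelled cells at 20 nM, 6 and 14 in WT-labelled cells at 20 nM, 12 and 10 in KO-labelled cells at 2 nM, and 12 and 7 in WT-labelled cells at 2 nM. The shares of 9.52% to 28.6% higher and 16.7% to 33.3% lower lie on either side of the 17.4% to 21.6% and 18.8% to 22.2% of all genes. BNIP3L, a mitophagy receptor, fell at 20 nM (-1.37 ± 0.47, adjusted p = 0.0267, in KO-labelled and -2.78 ± 0.47, adjusted p = 6.92e-05, in WT-labelled cells). ATG4A, a protease that processes Atg8 proteins, fell in KO-labelled cells at 20 nM (-1.32 ± 0.36, adjusted p = 0.00622), and ATG12, the ubiquitin-like conjugation protein, rose in WT-labelled cells at 20 nM (1.37 ± 0.43, adjusted p = 0.0148). TP53INP1, a p53 target that binds Atg8 proteins, rose at 2 nM by 3.60 ± 0.40 in KO-labelled cells (adjusted p = 4.65e-07) and 1.89 ± 0.40 in WT-labelled cells (adjusted p = 0.000904), and CDKN1A was called in KO-labelled cells at 2 nM as well (2.26 ± 0.35, adjusted p = 2.28e-05). XPO1, the receptor that leptomycin B binds, rose by 0.47 ± 0.15 in WT-labelled cells at 20 nM (adjusted p = 0.017), by 0.54 ± 0.14 in KO-labelled cells at 2 nM (adjusted p = 0.00484) and by 0.59 ± 0.14 in WT-labelled cells at 2 nM (adjusted p = 0.00291), and gave 0.32 ± 0.15 in KO-labelled cells at 20 nM (adjusted p = 0.112).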

How the data were processed

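Cells were treated for 16 h, RNA was extracted with Trizol and amplified with an Illumina TotalPrep kit, per the labels' protocols. The deposited intensity table was made with BeadStudio, per the submitters' processing notes. For its version, background correction and normalization: not given in the sources used here. Deposited intensities ran from -27.18 to 27669 with a median of 10.19, and 20.41% were below 0, so background had been subtracted. No detection p was used.

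Of 22177 probes, 21101 had 1 gene symbol in the platform annotation, 0 had several and 1076 had none. Of these, 20986 matched the reference gene table by Entrez identifier, and 0 symbols were updated. They stood for 17283 genes, each represented by its brightest probe. Of the 42 genes, 34 had 1 probe, 5 had 2 and 3 had 3.

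Intensities below 10 were set to 10 (49.7% of values lay at or below it), log2 was taken, and a gene was kept if it exceeded an array's 40th percentile on 3 arrays or more, which left 12962. The fold changes of dim genes are understated by the floor. All arrays entered a single limma model (version 3.58.1, R 4.3.3) of 8 label, treatment and series cells, which leaves 18 residual degrees of freedom. Random blocks used statmod 1.5.0. Benjamini-Hochberg adjustment ran over all genes, or over all 15034 named probes passing the filter for single probes. The procedure was tested on simulated data. No 2 arrays were identical.

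The genes, the lists and the markers were chosen with earlier results of these data known. Values on every array are given for TFEB, TFE3 and the 3 genes of each role class called in most responses, with ties broken by mean absolute difference. For comparisons between responses or labels up to 5 called genes with the largest difference are named, and of the other pathway genes the 3 largest rises and falls per response. Any other gene was added after its values were seen.

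Labels give the untreated KO-labelled and WT-labelled arrays the same replicate numbers. Same-numbered untreated arrays deviated together from their group means (correlation across genes 0.69 to 0.76 in series 1 and 0.33 to 0.81 in series 2). Same-numbered treated arrays did not (-0.044 to 0.10). Replicates 4 and 10 stood apart in both labels, which moves the group means and by itself can make the other numbers correlate. The correlations therefore do not show that each number is a pair. Pairing by number was an assumption, and the labels do not state it. Alternatives were a floor of 20, an offset of 50 in place of the floor, median scaling, quantile normalization, no filter, the mean over probes, a trended and robust variance model, the slide as a random block, only the arrays of the comparison, the replicate number as a block, each array left out in turn, and untreated replicates 4 and 10 left out. Fitting each probe on its own was chosen after seeing the data.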

Additional observations from a re-analysis of the deposited data

Results flagged for a closer look

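In series 2, where each label had 4 untreated arrays, the array farthest from the others was tested for its gap against the whole range in 78 pairs of gene and group. In 10 of them 1 array stood apart, and in all 10 it was replicate 10. Chance gives such a gap in about 1 in 20 groups. In KO-labelled cells untreated replicate 10 read 669.6 for CTSD, 8227 for NPC2, 5922 for PSAP and 68.6 for WIPI1, each above the other 3 arrays. In WT-labelled cells it read 964 for CTSL, 4644 for PSAP, 535 for GABARAPL1, 973 for SQSTM1 and 72.2 for WIPI1, each above the others, and 278 for ATP6V0D1, below them.

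The response to leptomycin B differed between labels or doses, by the test of the difference itself, for the following genes, as log2 differences. Between KO-labelled and WT-labelled cells at 20 nM the responses differed by 0.55 for CTSD, 0.62 for GUSB, 0.39 for NPC2 and -0.46 for SLC17A5, and at 2 nM by 0.51 for CTSA. The 20 nM response minus the 2 nM response in KO-labelled cells was 1.30 for CTSC, 0.72 for SQSTM1 and 0.54 for LAMP2. It was -1.52 for ATP6V1H, -1.14 for SLC17A5, -0.93 for ULK1 and -0.79 for ATP6V1A, and -0.60 for NEU1, -0.46 for ATP6V1B2 and -0.44 for ATP6V0E1. In WT-labelled cells the same difference was 0.55 for CTSC. It was negative for 5 of the 6 autophagy genes, at -2.46 for GABARAPL1, -1.53 for MAP1LC3B, -1.48 for WIPI1, -0.98 for ULK1 and -0.64 for UVRAG. It was also negative for RRAGC (-0.80), GUSB (-0.68), RRAGD (-0.59), SLC17A5 (-0.53), NPC2 (-0.33) and LAMP1 (-0.29).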

How the results depend on the processing

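Over the 41 genes and all 10 comparisons, labels and doses included, 410 single results were computed. Quantile normalization, median scaling and the trended, robust variance model each left 409 in their direction and on their side of the threshold, a floor of 20 405, no filter and an offset of 50 397 each, the mean over probes 394, the slide as a random block 380, only the arrays of the comparison 353 and leaving out untreated replicates 4 and 10 293. Of the 164 between labels, the replicate block left 127. With only the arrays of the comparison in the fit, the count in KO-labelled cells at 20 nM was 11 in place of 23. With the slide as a random block it was 17 there, and 16 in place of 18 in WT-labelled cells at 20 nM. At 2 nM the slide block left the counts at 26 in KO-labelled and 29 in WT-labelled cells. With 1 array left out, the counts ran from 20 to 23 in KO-labelled and from 17 to 20 in WT-labelled cells at 20 nM, and from 24 to 27 in KO-labelled and from 23 to 26 in WT-labelled cells at 2 nM.

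Comparisons between labels and doses depended more on the untreated arrays. Without untreated replicates 4 and 10 the counts were 19 for KO-labelled minus WT-labelled responses at 20 nM and 18 at 2 nM, 24 for 20 minus 2 nM in KO-labelled cells and 26 in WT-labelled cells, and 21 and 18 for untreated cells of series 1 and 2. With the slide as a random block they were 0 and 5 between labels at 20 and 2 nM, 6 for the doses in KO-labelled cells, and 5 and 1 for untreated cells of series 1 and 2. The count of 0 came from limma, in which 6 genes had an unadjusted p under 0.05. With only the arrays of the comparison the counts were 7 between labels at 2 nM, and 2 and 5 for untreated cells of series 1 and 2. An offset of 50 gave 2 between labels at 2 nM and 5 for untreated series 2, and the mean over probes gave 3 between labels at 2 nM. With the replicate number as a block, 13 genes were called between labels at 20 nM (8 higher, 5 lower), 13 at 2 nM (6 higher, 7 lower), 19 in untreated series 1 and 8 in untreated series 2. The treated arrays share only a number, so the first 2 of these counts rest on a pairing that the treated arrays do not show. The counts of untreated cells assume a pairing that was not shown for each number. With 1 array left out, the counts ran from 1 to 13 and from 1 to 5 between labels at 20 and 2 nM, from 6 to 19 and from 6 to 15 between doses in KO-labelled and WT-labelled cells, and from 5 to 15 and from 3 to 6 in untreated series 1 and 2. The 13, the 19 and the 15 came from leaving out untreated KO-labelled replicate 4.

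Signs turned for a few genes. Without untreated replicates 4 and 10 the 20 nM responses of SQSTM1 in KO-labelled cells (0.15) and of MAP1LC3B in both (-0.29 in KO-labelled and -0.32 in WT-labelled cells) turned. The second ATP6V1C1 probe gave -0.18 in KO-labelled cells at 20 nM, -1.10 for 20 minus 2 nM in KO-labelled cells, and 0.19 and -0.055 for untreated cells of series 1 and 2, and the mean over ATP6V1C1 probes gave -0.52 for 20 minus 2 nM in KO-labelled cells. The second ATP6V1H probe gave 1.02 in KO-labelled cells at 20 nM and the mean over both 0.38. The other LAMP2 probes gave 1.08 and 1.13 in WT-labelled cells at 20 nM (mean over probes 0.70) and 1.16 and 0.94 in KO-labelled cells at 2 nM (mean 0.64). Another FLCN probe gave -0.090 in KO-labelled cells at 20 nM, but its mean intensity was 6.54 there, against 8.43 untreated. Both lie under the floor, so this sign has little meaning. Another CTSC probe gave -0.17 for 20 minus 2 nM in WT-labelled cells. The cause was not tested. Probes near the floor limit what can be read for TFEB, TFE3, CTSF, CTSH and HEXA.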
